A study of Rattus norvegicus with 6 samples.

Results

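This account covers 9 genes of the liver's fasting programme: the nuclear receptor PPAR-alpha (Ppara), its coactivator PGC-1alpha (Ppargc1a), the fatty acid omega-hydroxylases Cyp4a1, Cyp4a2, Cyp4a3 and Cyp4a8, the kinase Pdk4 and the secreted proteins Fgf21 and Angptl4. They were chosen by name, with earlier results of these data known, and 8 of the 9 were found among the 16209 rows of the expression table. The expression of Cyp4a3 was not analysed here. RNA was sequenced from 6 liver samples of rats with liver fibrosis. Of these, 3 came from rats given ginkgetin, a biflavone found in ginkgo leaves, at 10 mg/kg/day, and 3 from fibrotic rats given vehicle. Both groups therefore carried fibrosis, and no healthy liver was analysed here. The sources used here do not give strain, sex, age, the agent that caused the fibrosis or the length of treatment. The vehicle columns carry the letters TAA in place of a group name and were taken as vehicle because it is the other group of the series, so every direction rests on that assignment. The comparison asks how ginkgetin treatment alters gene expression in the fibrotic liver.

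PPAR-alpha is a ligand-activated transcription factor of hepatocytes that binds DNA as a heterodimer with a retinoid X receptor. Fatty acids released in fasting activate it, and it turns on genes for fatty acid uptake, oxidation and ketone body synthesis. CYP4A enzymes hydroxylate fatty acids at the omega carbon and are classic PPAR-alpha targets in rodents. PDK4 phosphorylates and inhibits pyruvate dehydrogenase and so spares glucose, FGF21 is a hormone that the liver releases in fasting, and ANGPTL4 inhibits lipoprotein lipase.

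Values are normalized reads per gene, and 13372367 to 14933853 reads per library were assigned to genes. Alb, serum albumin, and Hnf4a, a hepatocyte transcription factor, served as hepatocyte references: Hnf4a had 5850, 9397 and 7325 normalized reads with ginkgetin and 6068, 4444 and 988 with vehicle, and Alb took 2.89 to 12.1% of the reads of a library. Vehicle replicate 3 stood apart. The mean log2 level of 20 hepatocyte markers was 15.47, 15.81 and 15.87 in ginkgetin replicates 1 to 3, against 15.54, 15.08 and 13.17 in vehicle replicates 1 to 3. All 20 had higher means with ginkgetin, and their summed level was 2521421 to 3771884 normalized reads with ginkgetin and 601582 to 3060449 with vehicle. Of 13 stellate cell and myofibroblast markers 11 were lower with ginkgetin, with sums of 3926 to 7450 normalized reads against 12869 to 133130 with vehicle. All 9 tested cholangiocyte markers were lower, and the 10 measured had sums of 489 to 1149 with ginkgetin and 2647 to 22030 with vehicle. All 8 cell cycle genes and all 6 neutrophil markers were also lower and 10 of 12 lymphocyte markers. Macrophage markers split 5 to 5 and endothelial markers 4 to 4. Of the adipocyte markers 2 were tested, and the 3 measured had summed levels of 1292 to 1773 normalized reads with ginkgetin and 792 to 1555 with vehicle. Of the muscle markers 4 were tested and 3 were lower. The 7 measured had sums of 71.7 to 147 with ginkgetin and 147 to 1358 with vehicle. In bulk tissue, fewer cells of a type and less RNA per cell cannot be told apart.

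All 8 measured genes had means on the log2 scale at or above those of the vehicle livers, against 48.6% of all 14639 genes tested. Their median log2 fold change was 1.77, beside -0.02 over all genes and 1.16 over the 20 hepatocyte markers. With libraries set to an equal mean log2 level of those markers, the median of the 8 genes was 0.66 and that of all genes -1.11. None of the 8 passed an adjusted p of 0.05 (limma, Benjamini-Hochberg over all genes), where 2 genes in all, or 0.0137%, passed. At an unadjusted p of 0.05, 3 of the 8 were higher with ginkgetin, namely Cyp4a8, Fgf21 and Angptl4, against 7.00% of all genes. At that threshold 1025 of all genes were on the higher side and 1938 (13.2%) on the lower, a split that became 348 to 2934 with equal library totals and 73 to 2996 with libraries set to an equal hepatocyte marker level. The values of the groups did not overlap for Fgf21 and Angptl4, which is 2 of 8, where 11.4% of all genes lay higher in every ginkgetin library and 16.1% lower. The other 6 genes overlapped between groups. Because the genes were chosen with earlier results of these data known, these shares describe the list and are no test of it.

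**Figure D1:**
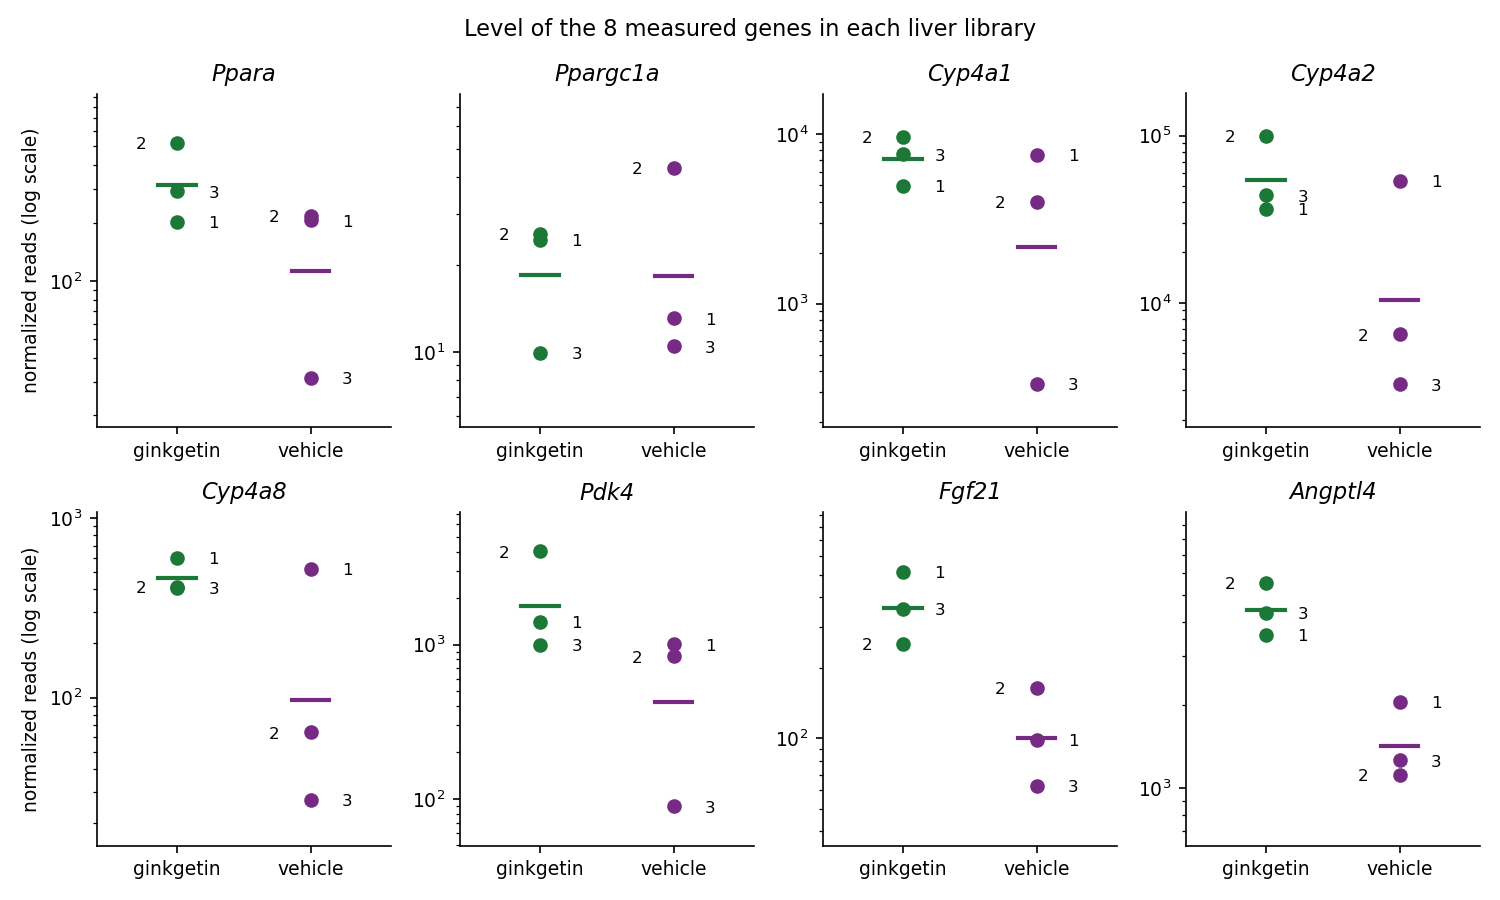
Normalized reads on a log scale for each of the 8 measured genes, with ginkgetin libraries (green) left of vehicle libraries (purple), each point numbered by its replicate and each bar the mean taken on the log2(value + 1) scale. Fgf21 and Angptl4 are the panels in which the groups do not overlap, while for Cyp4a2 and Cyp4a8 vehicle replicate 1 sits among the ginkgetin libraries.

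Ppara itself stood at 202, 523 and 292 normalized reads in ginkgetin replicates 1 to 3, against 206, 218 and 31.3 in vehicle replicates 1 to 3. Vehicle replicates 1 and 2 lay beside ginkgetin replicate 1, and vehicle replicate 3 was far below all others. The log2 fold change was 1.47 (SE 0.73), or 2.77-fold with a 95% interval of 0.87 to 8.87, and did not pass (limma adjusted p = 0.291). Without vehicle replicate 3 it was 0.56. Relative to the hepatocyte markers, the log2 level of Ppara was -7.80, -6.78 and -7.68 with ginkgetin and -7.84, -7.31 and -8.16 with vehicle, so the libraries overlapped. Of 6861 candidate genes, the profile most like that of Ppara over the 6 libraries belonged to Foxa1, a hepatocyte transcription factor, at a root mean square distance of 0.16 log2 units. Itih1, a secreted liver protein, and Slc26a8, an anion transporter, followed at 0.28 each.

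Ppargc1a, the gene of the coactivator PGC-1alpha that fasting induces in liver, had similar means in both groups, with a wide interval. It had 24.3, 25.5 and 9.90 normalized reads with ginkgetin and 13.05, 43.2 and 10.4 with vehicle. The highest library was vehicle replicate 2 and the lowest ginkgetin replicate 3, so the groups overlapped throughout. Its log2 fold change was 0.01 (SE 0.69, limma adjusted p = 0.994), with an interval of 0.34-fold to 3.02-fold. These values rest on 8 to 52 reads per library. Its nearest profiles, Miga2, Ajuba and Abca8, lay at distances of 0.41 to 0.44.

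Among 21 partners and coregulators of PPAR-alpha, 15 had higher means with ginkgetin. Their median log2 fold change was 0.53. At an unadjusted p of 0.05, 2 of the 21 were higher, against 7.00% of all genes. None of the 21 passed after adjustment over all genes in limma. Rxra, the main retinoid X receptor of liver and the DNA-binding partner of PPAR-alpha, had 734, 1926 and 784 normalized reads with ginkgetin and 304, 295 and 257 with vehicle. The vehicle libraries were close together and all 3 ginkgetin libraries lay above them, with ginkgetin replicate 2 the highest (log2 fold change 1.86, SE 0.37, limma adjusted p = 0.0886). Lpin1, a PGC-1alpha-induced phosphatidate phosphatase that amplifies PPAR-alpha activity, had 284, 1810 and 642 with ginkgetin, against 246, 214 and 55.9 with vehicle (2.26, SE 0.74). Foxo1, a transcription factor restrained by insulin, overlapped between groups (1.29, SE 0.57). Without vehicle replicate 3 the values were 1.79 for Rxra, 1.59 for Lpin1 and 0.84 for Foxo1, and the median of the list was 0.23. With libraries set to an equal hepatocyte marker level the median of the list turned negative, to -0.59, and Rxra was at 0.74 (limma adjusted p = 0.504). The median of all genes on that scale was -1.11. Relative to the hepatocyte markers Rxra lay at -5.95, -4.90 and -6.26 with ginkgetin and at -7.29, -6.87 and -5.16 with vehicle, so vehicle replicate 3 fell within the ginkgetin range.

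The CYP4A genes lie together on chromosome 5 and are near relatives, so their start regions are shown to compare the family. Each stretch covers 250 bases before and 50 after the annotated start, from RefSeq on GRCr8, minus strand, 5′ to 3′. Capitals mark AGGTCA, the core sequence of the direct repeat that PPAR-alpha binds with RXR. Cyp4a2 was taken from chr5:134170859-134171158, Cyp4a3 from chr5:134352187-134352486 and Cyp4a8 from chr5:133970177-133970476.
Cyp4a2: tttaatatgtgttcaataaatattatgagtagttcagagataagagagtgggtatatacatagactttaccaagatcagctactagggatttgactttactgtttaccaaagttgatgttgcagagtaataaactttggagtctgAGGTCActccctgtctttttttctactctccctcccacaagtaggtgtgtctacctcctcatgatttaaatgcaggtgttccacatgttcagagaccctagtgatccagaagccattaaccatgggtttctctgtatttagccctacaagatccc
Cyp4a3: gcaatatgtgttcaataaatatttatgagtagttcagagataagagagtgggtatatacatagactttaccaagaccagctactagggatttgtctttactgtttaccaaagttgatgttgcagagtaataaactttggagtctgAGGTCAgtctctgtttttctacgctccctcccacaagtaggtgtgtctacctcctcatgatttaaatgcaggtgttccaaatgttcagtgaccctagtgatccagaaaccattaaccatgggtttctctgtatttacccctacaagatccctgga
Cyp4a8: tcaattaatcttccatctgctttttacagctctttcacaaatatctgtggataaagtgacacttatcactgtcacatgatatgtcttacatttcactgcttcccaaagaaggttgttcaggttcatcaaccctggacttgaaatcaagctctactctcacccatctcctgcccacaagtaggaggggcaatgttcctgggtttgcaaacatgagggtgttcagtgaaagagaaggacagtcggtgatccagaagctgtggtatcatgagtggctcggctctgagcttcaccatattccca
Cyp4a2 and Cyp4a3 were identical at 284 of 305 aligned positions (93.1%), whereas Cyp4a2 and Cyp4a8 were identical at 189 of 323 (58.5%). Both Cyp4a2 and Cyp4a3 hold AGGTCA 105 bases before the start on the strand shown, and Cyp4a8 holds none in this window. Searched on both strands, AGGTCA occurred in 16.2% of all 33469 promoters, in 2 of the 8 member promoters in the table and in 14 of 37 promoters of other PPAR-alpha target genes. The full repeat, AGGTCA followed after 1 base by AGGTCA, occurred in 18 promoters of the whole table and in 0 of the 8. These 8 include Cyp4a3 and lack Cyp4a1, so they are not the 8 measured genes. The 2 with AGGTCA are the near-identical Cyp4a2 and Cyp4a3. Only exact matches within this window were counted. The RefSeq table also lists a Cyp4a2-like gene and pseudogenes, and the sources used here do not say how reads of near-identical copies were assigned, so the Cyp4a2 values may include reads of its relatives.

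Cyp4a2 had 36383, 99239 and 43903 normalized reads in ginkgetin replicates 1 to 3, against 53476, 6477 and 3245 in vehicle replicates 1 to 3. Vehicle replicate 1 lay above ginkgetin replicates 1 and 3, and vehicle replicates 2 and 3 lay far below every other library. The log2 fold change was 2.38 (SE 1.04), or 5.20-fold with a 95% interval of 0.98 to 27.5 (limma adjusted p = 0.248). Cyp4a8 showed the same order of libraries at the low end, with 598, 411 and 407 normalized reads with ginkgetin and 517, 64.0 and 27.0 with vehicle. Its log2 fold change was 2.25 (SE 0.91, 4.74-fold, interval 1.11 to 20.3, limma adjusted p = 0.224). The vehicle spread of both genes came mainly from vehicle replicate 1 against the others: replicate 1 exceeded replicate 2 by 8.26-fold for Cyp4a2 and by 8.08-fold for Cyp4a8.

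That gap was larger than the gap in hepatocyte marker level between the same libraries. Relative to the hepatocyte markers, Cyp4a2 lay at -0.32, 0.79 and -0.45 with ginkgetin, against 0.17, -2.42 and -1.51 with vehicle. Cyp4a8 lay at -6.24, -7.12 and -7.20 with ginkgetin, against -6.52, -9.06 and -8.36 with vehicle. On this scale vehicle replicate 2, not replicate 3, was the lowest library for both genes. Cyp4a2 and Cyp4a8 were each other's closest profile among the other measured members, at a distance of 0.58 log2 units. The ratio of Cyp4a2 to Cyp4a8 reads, not corrected for length, was 60.8, 242 and 108 in the ginkgetin libraries, while it was 103, 101 and 120 in the vehicle libraries.

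The result for both genes turned on vehicle replicate 1. Without it the log2 fold change was 3.56 for Cyp4a2 (limma adjusted p = 0.0328) and 3.45 for Cyp4a8 (adjusted p = 0.0147), and both passed, where 1.94% of all genes passed on the higher side. Without vehicle replicate 3 the values were 1.54 and 1.34. With libraries set to an equal hepatocyte marker level they were 1.26 and 1.14, and the median of all genes on that scale was -1.11. The genes with profiles most like Cyp4a2 were Lipo1, Slc22a8 and Sult1c3, at distances of 0.39 to 0.44. Slc22a8, an organic anion transporter, had 1585, 3860 and 3450 normalized reads with ginkgetin and 1868, 230 and 118 with vehicle, and Sult1c3, a sulfotransferase, had 1142, 2442 and 2093 with ginkgetin, against 1266, 322 and 85.9 with vehicle. Those most like Cyp4a8 were Clec4f, a Kupffer cell lectin, Adtrp, and Cyp1a2, a drug-metabolizing P450 of hepatocytes, at 0.41 to 0.44.

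Cyp4a1, a clofibrate-inducible member of the family, followed another pattern. It had 4948, 9621 and 7589 normalized reads with ginkgetin and 7518, 4000 and 337 with vehicle. Vehicle replicates 1 and 2 fell within or just below the ginkgetin range, and vehicle replicate 3 lay far below. Cyp4a1 had a log2 fold change of 1.72 (SE 1.03), or 3.29-fold with a 95% interval of 0.64 to 16.9 (limma adjusted p = 0.368), and 0.38 without vehicle replicate 3. The nearest profile was Pck1, the rate-limiting enzyme of gluconeogenesis, at a distance of 0.16, with 44498, 86638 and 64628 normalized reads with ginkgetin and 56197, 34220 and 3677 with vehicle. Mro and Slc17a1, a sodium-phosphate cotransporter, followed at 0.23 and 0.25. The ratio of Cyp4a2 to Cyp4a1 reads, not corrected for length, was 7.35, 10.3 and 5.78 with ginkgetin, against 7.11, 1.62 and 9.63 with vehicle. Vehicle replicate 2 was therefore the one library in which Cyp4a2 was low for its Cyp4a1 level, and in vehicle replicate 3 both were low.

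**Figure D2:**
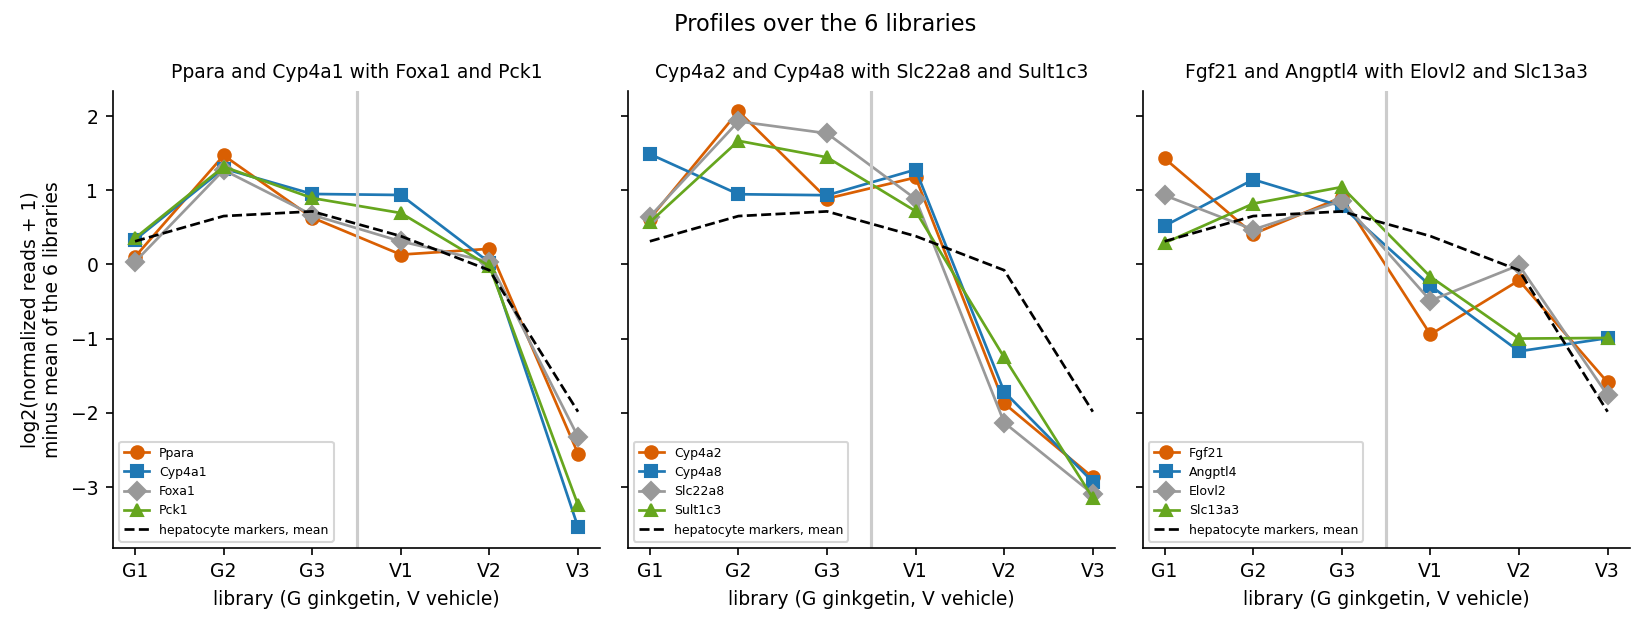
Log2(normalized reads + 1) minus the mean of the 6 libraries, for genes named in the text and for the mean of the 20 hepatocyte markers (dashed), by library. Ppara and Cyp4a1 drop mainly in vehicle replicate 3, Cyp4a2 and Cyp4a8 already in vehicle replicate 2, and Fgf21 and Angptl4 lie lower in all 3 vehicle libraries than in any ginkgetin library.

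Of the other CYP4 genes and enzymes of omega-oxidation, 16 of 18 were tested, and 12 had higher means with ginkgetin (median 0.96). At an unadjusted p of 0.05 there were 5 higher and 2 lower, where 7.00% of all genes were higher and 13.2% lower. None of the 16 passed after adjustment over all genes in limma. The median of the list was 0.45 without vehicle replicate 3, and it turned negative, to -0.16, with libraries set to an equal hepatocyte marker level. The median of all genes on that scale was -1.11. Adh4, an alcohol dehydrogenase that oxidizes long-chain omega-hydroxy fatty acids, had 3556, 6333 and 5661 normalized reads with ginkgetin and 2141, 1720 and 1399 with vehicle (log2 fold change 1.54, SE 0.36, limma adjusted p = 0.101). Cyp4b1 was on the lower side, with 426, 340 and 358 with ginkgetin, against 545, 540 and 602 with vehicle (-0.59, SE 0.20), a small difference that all 3 libraries of each group shared. With libraries set to an equal hepatocyte marker level the log2 fold change was -1.71. Cyp4f37 was at 3.32, 0 and 0 with ginkgetin, against 9.49, 21.6 and 17.2 with vehicle, too few reads for a firm fold change.

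Pdk4 stood at 1397, 4008 and 992 normalized reads with ginkgetin and at 1001, 838 and 89.6 with vehicle. Ginkgetin replicate 2 was the highest library and vehicle replicate 3 the lowest, and vehicle replicate 1 overlapped ginkgetin replicate 3. For Pdk4 the log2 fold change was 2.06 (SE 0.91), or 4.18-fold with a 95% interval of 0.97 to 17.9 (limma adjusted p = 0.251), and 0.95 without vehicle replicate 3. The spread within the ginkgetin group, 4.04-fold between its highest and lowest library, was the widest of the 8 genes there. Its nearest profiles, Rapgef4, Rab30 and Apoa5, lay at distances of 0.47 to 0.51, farther than those of any other member. Apoa5, an apolipoprotein that activates lipoprotein lipase, had 17762, 32926 and 20249 normalized reads with ginkgetin and 12621, 7882 and 1891 with vehicle.

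The pyruvate dehydrogenase complex that PDK4 inhibits, with its other kinases and phosphatases, counted 7 of 10 genes with higher means (median 0.50). At an unadjusted p of 0.05, 5 were on the higher side and 0 on the lower, against 7.00% and 13.2% of all genes. None of the 10 passed after adjustment over all genes in limma. The median of the list turned negative with equal library totals (-0.021) and with libraries set to an equal hepatocyte marker level (-0.62). On those scales the median of all genes was -0.53 and -1.11. Pdha1, the catalytic subunit, had 350, 557 and 364 normalized reads with ginkgetin and 223, 222 and 211 with vehicle (log2 fold change 0.92, SE 0.25). Pdk1, a sister kinase, had 219, 332 and 286 with ginkgetin, against 155, 170.5 and 152 with vehicle (0.79, SE 0.25), and Pdp2, a phosphatase that reverses the kinases, had 132, 117 and 163 with ginkgetin, against 79.5, 48.2 and 33.1 with vehicle (1.42, SE 0.40). Groups did not overlap for these 3 genes, which were picked for the smallest p of the list. Over the whole list, 5 of 10 genes lay higher in every ginkgetin library and 0 lower, against 11.4% and 16.1% of all genes. With libraries set to an equal hepatocyte marker level, Pdha1 and Pdk1 changed sign, to -0.20 and -0.33, and Pdp2 was at 0.31.

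Fgf21 and Angptl4 were the members that separated the groups, and their start regions are shown because they differ from those of the CYP4A family. They were taken from chr1:105221327-105221626 and chr7:15258632-15258931, RefSeq on GRCr8, minus strand, 5′ to 3′, and capitals mark TATAAA, on either strand and overlapping in Angptl4.
Fgf21: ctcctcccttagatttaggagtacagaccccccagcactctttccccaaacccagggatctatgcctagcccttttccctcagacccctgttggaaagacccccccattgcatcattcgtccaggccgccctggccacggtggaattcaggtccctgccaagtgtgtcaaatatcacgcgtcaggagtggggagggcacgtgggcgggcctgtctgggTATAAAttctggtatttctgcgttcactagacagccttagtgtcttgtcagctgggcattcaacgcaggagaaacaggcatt
Angptl4: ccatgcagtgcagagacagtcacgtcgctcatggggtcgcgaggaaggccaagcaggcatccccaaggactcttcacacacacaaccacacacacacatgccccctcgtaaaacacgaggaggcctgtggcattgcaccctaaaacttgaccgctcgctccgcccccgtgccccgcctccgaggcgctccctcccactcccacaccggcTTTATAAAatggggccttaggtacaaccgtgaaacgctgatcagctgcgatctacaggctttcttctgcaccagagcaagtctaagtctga
TATAAA began 32 bases before the start in Fgf21, and in Angptl4 39 bases before it on the strand shown and 41 bases before it on the opposite strand. It was found in 14.2% of all promoters in the table and in these 2 of the 8 member promoters. AGGTCA was not among the letters of either window. These matches describe the sequence and were not tested as binding sites.

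Fgf21 had 514, 253 and 358 normalized reads in ginkgetin replicates 1 to 3, against 98.5, 164 and 62.6 in vehicle replicates 1 to 3. Every ginkgetin library lay above every vehicle library, and the nearest were ginkgetin replicate 2 and vehicle replicate 2. The log2 fold change was 1.83 (SE 0.41), or 3.56-fold with a 95% interval of 1.85 to 6.84, and did not pass over all genes (limma adjusted p = 0.0963). It ran from 1.495 to 2.18 with any one library left out, and it passed with DESeq2 on reads recovered from the values (1.79, adjusted p = 0.00438; edgeR adjusted p = 0.102), where 1.97% of genes passed on the higher side. The order of libraries within the ginkgetin group differed from that of Ppara: ginkgetin replicate 2 was the highest for Ppara and the lowest for Fgf21. The ratio of Fgf21 to Ppara reads, not corrected for length, was 2.54, 0.48 and 1.22 with ginkgetin and 0.48, 0.75 and 2 with vehicle, and so overlapped.

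Angptl4 had 3599, 5550 and 4321 normalized reads with ginkgetin, against 2057, 1114 and 1261 with vehicle. Again the groups did not overlap. The spread within the vehicle group, 1.85-fold between the highest and lowest library, was the smallest of the 8 genes there. The log2 fold change was 1.63 (SE 0.36), or 3.10-fold with a 95% interval of 1.76 to 5.47 (limma adjusted p = 0.0936). With 1 library left out it ran from 1.46 to 1.90, and it passed without vehicle replicate 1 (limma adjusted p = 0.0325), where 1.94% of all genes passed on the higher side. It also passed with DESeq2 on recovered reads (1.605, adjusted p = 0.000487), where 1.97% did, and did not pass with edgeR on the same reads (adjusted p = 0.102). Slc13a3, a dicarboxylate transporter, Adh4 and Gne, the key enzyme of sialic acid synthesis, had the nearest profiles, at 0.21 to 0.22. For Fgf21 these were Elovl2, a fatty acid elongase, Grpel2 and Ptprf, at 0.30 to 0.33.

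For both hepatokines the separation of the groups depended on the scale used. Angptl4 was lowest in vehicle replicate 2 and Ppargc1a in ginkgetin replicate 3, while the other 6 members were lowest in vehicle replicate 3, where the hepatocyte markers were lowest. Relative to those markers Angptl4 lay at -3.66, -3.37 and -3.80 with ginkgetin and at -4.53, -4.96 and -2.87 with vehicle, so that vehicle replicate 3 was the highest library. Fgf21 lay at -6.46, -7.82 and -7.39 with ginkgetin and at -8.90, -7.71 and -7.18 with vehicle. With libraries set to an equal hepatocyte marker level the groups overlapped and the log2 fold changes were 0.72 for Fgf21 (limma adjusted p = 0.550) and 0.51 for Angptl4 (adjusted p = 0.563). The median of all genes on that scale was -1.11. Fgf21 lay 1.82 and Angptl4 1.62 above it, beside 1.85 and 1.65 above the all-gene median in the main fit. Scaling by a single factor per library shifts all genes nearly alike, so these distances could hardly change and are no check. Non-parenchymal markers moved with the groups as given above, and their part in the level of Angptl4, which other cell types also make, was not tested.

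**Figure D3:**
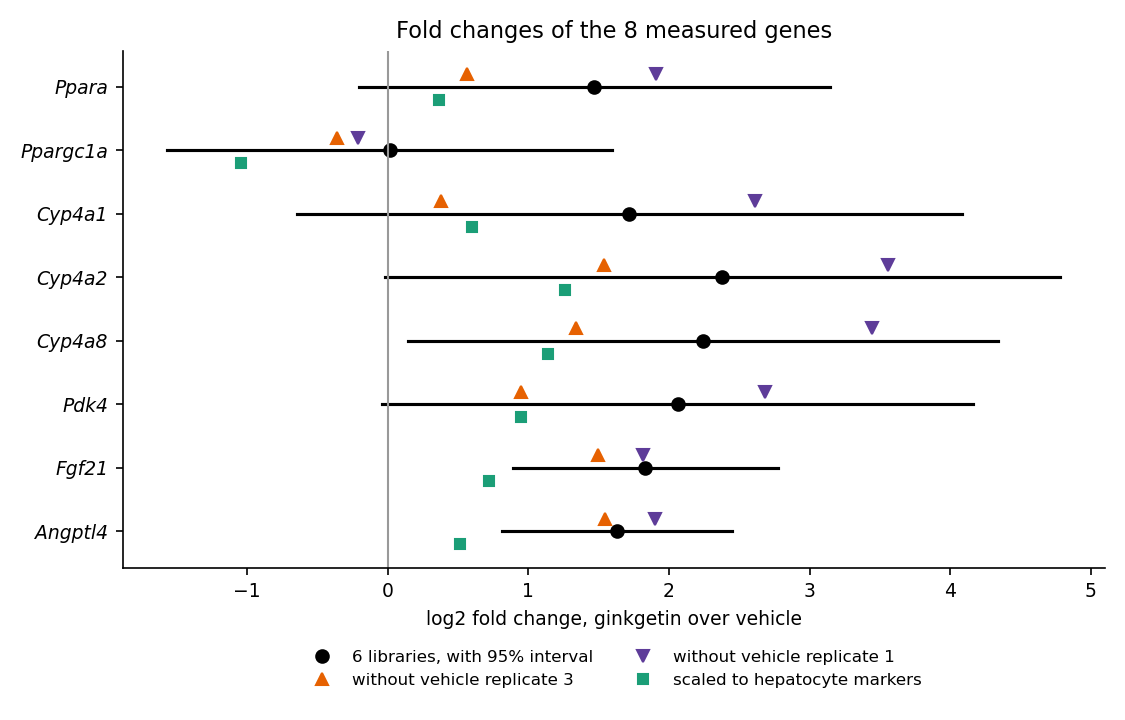
Log2 fold change, ginkgetin over vehicle, of the 8 measured genes with the 95% interval of the limma fit (black), and the same without vehicle replicate 3 or 1 (triangles) and with libraries set to an equal hepatocyte marker level (squares). Fgf21 and Angptl4 have the narrowest intervals, 0.89 to 2.77 and 0.81 to 2.45, and Ppargc1a lies at 0.01.

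Of 18 other hepatokines and receptors of these hormones, 14 had higher means with ginkgetin, at a median of 0.67. At an unadjusted p under 0.05, 5 were on the higher side and 2 on the lower, against 7.00% and 13.2% of all genes. None of the 18 passed after adjustment over all genes in limma. The median of the list was 0.14 without vehicle replicate 3 and turned negative, to -0.45, with libraries set to an equal hepatocyte marker level. The median of all genes on that scale was -1.11. Angptl6, another secreted angiopoietin-like protein of liver, had 323, 531 and 314 normalized reads with ginkgetin and 154, 76.5 and 35.0 with vehicle (log2 fold change 2.32, SE 0.51, limma adjusted p = 0.0951). Lpl, the lipoprotein lipase that ANGPTL4 inhibits, was on the lower side, with 903, 541 and 250 with ginkgetin, against 1383, 3212 and 7579 with vehicle (-2.70, SE 0.66, limma adjusted p = 0.109). Fst, the activin-binding protein follistatin, was at 8.84, 2.31 and 0 normalized reads with ginkgetin and 48.6, 27.4 and 126 with vehicle (-4.14, SE 0.94). Vehicle replicate 3 was the highest library for both Lpl and Fst, and without it they were at -2.08 and -3.56.

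Classical PPAR-alpha target genes outside the members leaned the same way. Of 42 tested, 37 had higher means with ginkgetin, and the list's median was 1.14 on the log2 scale. The unadjusted p was under 0.05 for 12 on the higher side and 1 on the lower, and none of the 42 passed after adjustment over all genes in limma. Groups did not overlap on the higher side in 16 of the 42. Among all genes, 48.6% had higher means and 11.4% lay higher in every ginkgetin library. At an unadjusted p under 0.05, 7.00% of all genes were higher and 13.2% lower. Pank1, which makes coenzyme A, had 1524, 2739 and 1912 normalized reads with ginkgetin and 1062, 654 and 430 with vehicle (1.58, SE 0.38). Pex11a, a peroxisome proliferation factor, had 1088, 1517 and 1358 with ginkgetin, against 787, 346 and 190 with vehicle (1.81, SE 0.47). Ucp2, an uncoupling protein of mitochondria also made by immune cells, went the other way, with 597, 494 and 508 with ginkgetin, against 1063, 1606 and 5332 with vehicle (-1.97, SE 0.54). The median of the list was close to that of the hepatocyte markers, 1.16. It was 0.66 without vehicle replicate 3 and 0.02 with libraries set to an equal hepatocyte marker level. The median of all genes on that scale was -1.11.

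**Figure D4:**
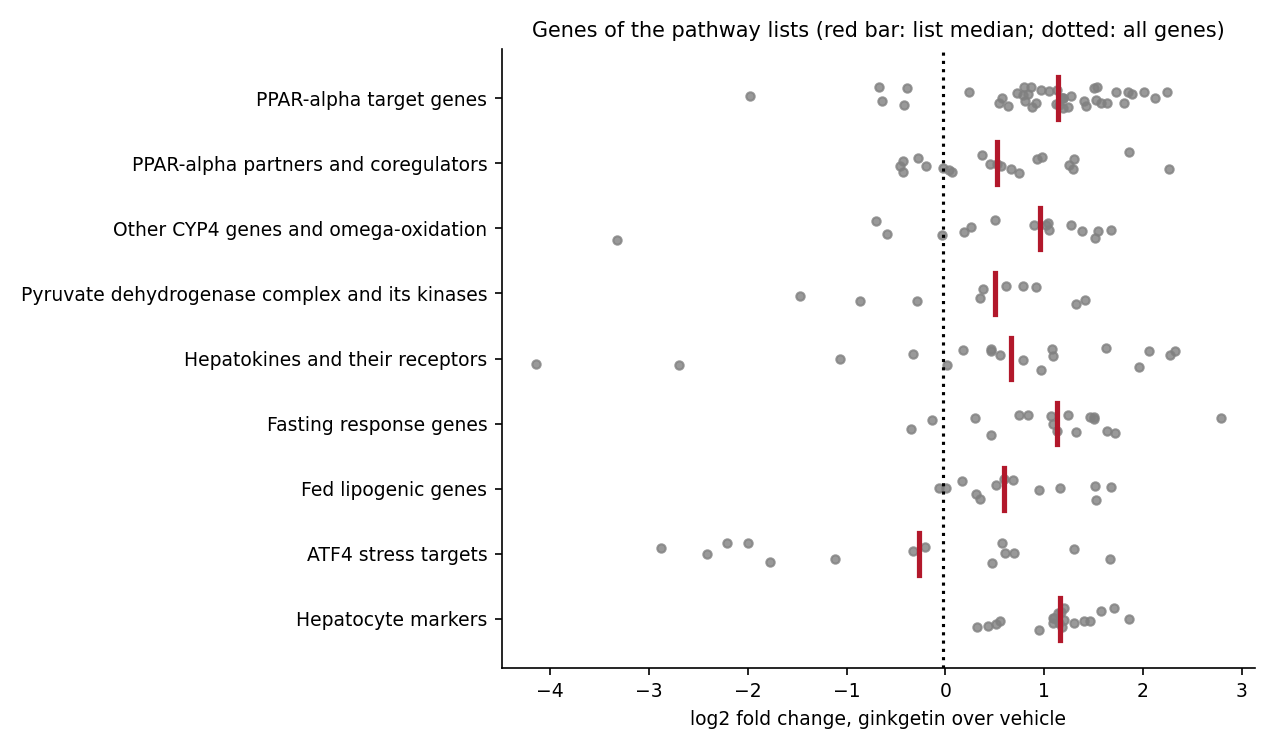
Log2 fold change, ginkgetin over vehicle, of each tested gene in the pathway lists and of the hepatocyte markers, with list medians (red bars) and the median of all genes (dotted line, -0.02). PPAR-alpha targets, fasting genes and hepatocyte markers have medians of 1.14, 1.13 and 1.16, while ATF4 targets spread to both sides at a median of -0.27.

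Fasting genes included 15 of 17 with higher means (median 1.13, 5 higher and 0 lower with p under 0.05 before adjustment). Fed lipogenic genes included 12 of 13 (median 0.59, 3 higher and 0 lower). Before adjustment 7.00% of all genes were higher and 13.2% lower at that threshold. No gene of either list passed after adjustment over all genes in limma. Insig2, which retains SREBP in the endoplasmic reticulum, stood out among the fasting genes, with 4839, 5112 and 4148 normalized reads with ginkgetin and 2038, 566 and 271 with vehicle (log2 fold change 2.78, SE 0.65, limma adjusted p = 0.101). Pdk2, the other main pyruvate dehydrogenase kinase of liver, was at 1.32 (SE 0.45). Among the fed genes, Pklr, liver pyruvate kinase, was at 1.51 (SE 0.51) and Acly, which makes cytosolic acetyl-CoA, at 0.59 (SE 0.25). On the scale of equal hepatocyte marker level Acly changed sign, to -0.53. On that scale the median was 0.012 for the fasting genes, -0.53 for the fed genes and -1.11 for all genes. Without vehicle replicate 3 it was 0.52 for the fasting genes and 0.32 for the fed genes. Whether the lists differed was not tested.

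Fgf21 is also induced by ATF4, the transcription factor of the integrated stress response, so ATF4 targets were read beside it. Of 14 tested, 6 had higher and 8 lower means with ginkgetin, at a median of -0.27. At an unadjusted p under 0.05, 1 was on the higher side and 4 on the lower, against 7.00% and 13.2% of all genes. None of the 14 passed after adjustment over all genes in limma. The median of the list was 0.14 without vehicle replicate 3. With libraries set to an equal hepatocyte marker level it was -1.38, beside -1.11 over all genes. Trib3, a pseudokinase, had 116, 194 and 122 normalized reads with ginkgetin and 46.3, 56.6 and 31.3 with vehicle (log2 fold change 1.67, SE 0.38). Phgdh and Psat1, enzymes of serine synthesis, were on the lower side. Phgdh had 29.9, 35.9 and 14.8 with ginkgetin, against 97.3, 326 and 220 with vehicle (-2.87, SE 0.54, limma adjusted p = 0.0804), and Psat1 had 23.2, 16.2 and 19.8 with ginkgetin, against 46.3, 140 and 197 with vehicle (-2.42, SE 0.57). These 3 genes were picked for the smallest p of the list, and their groups did not overlap. Over the whole list, 3 of 14 genes lay higher in every ginkgetin library and 3 lower, against 11.4% and 16.1% of all genes. With libraries set to an equal hepatocyte marker level Trib3 was at 0.56, Phgdh at -3.96 and Psat1 at -3.50. The part of ATF4 in the level of Fgf21 was not tested.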

How the data were processed

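Per the labels' protocols, total liver RNA went into SMARTER mRNA libraries. Reads were placed on mRatBN7.2, per the submitters' processing notes. Aligner, counter, annotation, strand setting and normalization: not given in the sources used here. The deposited values are a signal, normalized reads per gene. Divided by the value of 1 read, 99.7% of values came out whole (tolerance 0.02) in every library. The recovered reads served for tests on counts, and 53 genes with values that were not whole were rounded there. No 2 libraries were duplicates (chi-square per degree of freedom at least 49.9). No label says that replicates were separate animals, so a p-value reflects only how far these samples spread, which may be technical.

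The main test was limma 3.58.1 (R 4.3.3) on log2(value + 1) with a trended, robust prior. It covered genes that reached 1 in at least 3 libraries, with Benjamini-Hochberg adjustment at 0.05. The added 1 shrinks fold changes of low genes. edgeR 4.0.16 and DESeq2 1.42.0 were run on recovered reads as alternatives. The procedures were tested on simulated reads. The simulation gave all genes the same dispersion and held no outlying library, so it does not cover a library such as vehicle replicate 3. The members and lists were chosen with earlier results of these data known. Named genes were the members, the 3 genes with the smallest p per pathway list (some of which are not reported here), and the 3 nearest profiles per member among genes with a mean above the median and a symbol in RefSeq. Hepatocyte scaling shifted each library to an equal mean log2 level of 20 hepatocyte markers. Promoters came from RefSeq (GRCr8), matched by symbol for 8 members, and were aligned with Biopython 1.88. Cyp4a1 was not matched there. The GRCr8 coordinates are not those of the build above.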

Additional observations from a re-analysis of the deposited data

How the results depend on the processing

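Of 14639 genes tested, 2 passed an adjusted p of 0.05 with limma. The count was 5 with a pseudocount of 5, 94 with equal library totals, 1 with quantile scaling, 649 with hepatocyte marker scaling, 1380 with DESeq2, and 0 with edgeR, where 2915 had an unadjusted p under 0.05. It ran from 0 to 753 with one library left out, 753 without vehicle replicate 1 and 112 without vehicle replicate 3. The median log2 fold change of the 8 genes, 1.77, was lowest with hepatocyte marker scaling, at 0.66. It was 1.26 with equal library totals and ran from 1.15 to 2.26 with one library left out. Equal library totals moved the median of all genes to -0.53 and hepatocyte marker scaling to -1.11, against which the median of the 8 genes lay 1.78 and 1.76 higher. Both scalings use a single factor per library, which shifts all genes nearly alike, so these distances could hardly change.

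All members but Ppargc1a kept a positive log2 fold change in the 16 alternatives. Ppargc1a changed sign with a pseudocount of 5 (-0.0050), equal library totals (-0.48), hepatocyte marker scaling (-1.04), edgeR (-0.17) and DESeq2 (-0.16), and ran from -0.36 to 0.61 with one library left out. Of the other named genes, Pdha1 (-0.20), Pdk1 (-0.33), Acly (-0.53), Slc26a8 (-0.062) and Miga2 (-0.97) turned negative with hepatocyte marker scaling, Miga2 (-0.38) with equal library totals and Alb (-0.30) with quantile scaling. Miga2 ran from -0.054 to 0.43 with one library left out. DESeq2 gave no p for Cyp4a8. The causes were not tested.

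Same-numbered libraries did not deviate together (correlations of deviations across genes -0.16, 0.03 and -0.21), so the numbers were not taken as pairs, and ginkgetin replicates 1 and 3 correlated best with a vehicle library of another number. With the replicate number as a block, 0 genes passed and 2382 had an unadjusted p under 0.05. The adjusted p in that fit was 0.212 for Fgf21 and 0.218 for Angptl4.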

Other observations

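Cyp4a2 is expressed mainly in males in rat liver, which led to a look at other sex-dependent liver genes, chosen after the values of Cyp4a2 were seen. Cyp2c11, the main male-specific P450 of rat liver, had 11515, 20123 and 20727 normalized reads with ginkgetin and 7962, 24.1 and 165 with vehicle. Mup5, a major urinary protein, had 14007, 9136 and 12547 with ginkgetin and 4916, 2.495 and 208 with vehicle. As with Cyp4a2 and Cyp4a8, vehicle replicates 2 and 3 were the low libraries and vehicle replicate 1 was the highest vehicle library. Vehicle replicate 1 exceeded vehicle replicate 2 by 330-fold for Cyp2c11 and 1970-fold for Mup5, beside 8.26-fold for Cyp4a2, 1.64-fold for Alb and 0.95-fold for Ppara. Cyp2c13, another male-specific P450, had 15320, 21388 and 25702 with ginkgetin and 26343, 7638 and 1614 with vehicle. Cyp3a2 had 1955, 15933 and 5575 with ginkgetin and 3093, 914 and 288 with vehicle. Cyp2c12, a female-predominant P450, had 195, 427 and 266 with ginkgetin and 1497, 716 and 211 with vehicle. Within the vehicle group it did not take the opposite order, since vehicle replicate 1 was again the highest. Between groups its log2 fold change was -1.12 (limma adjusted p = 0.358), and the groups overlapped. It ran from -1.88 to -0.47 with one library left out. With libraries set to an equal hepatocyte marker level it was -2.23, beside -1.11 over all genes. The Y-linked genes Eif2s3y (525 to 731 with ginkgetin, 477 to 872 with vehicle) and Kdm5d (232 to 329 with ginkgetin, 194 to 318 with vehicle) were present in all 6 libraries.

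With all 6 libraries the log2 fold change was 5.72 for Cyp2c11 (limma adjusted p = 0.148) and 6.26 for Mup5 (adjusted p = 0.175). Without vehicle replicate 1 both passed, at 8.03 (limma adjusted p = 0.00871) and 8.76 (adjusted p = 0.0218). In that fit 1.94% of all genes passed on the higher side. Without vehicle replicate 2 the values of both were 3.88 and 3.53, and without vehicle replicate 3 they were 5.24 and 6.48. Cyp2c13 and Cyp3a2 were at 1.57 and 2.58 with 6 libraries (limma adjusted p = 0.368 and 0.196). Without vehicle replicate 1 they were at 2.53 and 3.44 and did not pass (limma adjusted p = 0.0679 and 0.0537). The part of these sex-dependent genes in the values of Cyp4a2 was not tested.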
